A study of Mus musculus with 12 samples.

Results

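The genes described here are 35 adipocyte, thermogenic and lipid synthesis genes measured by RNA-Seq in mouse abdominal aorta. They were taken by symbol from a table of 55092 features, 54532 of them with an Ensembl identifier, and every symbol matched 1 row. They fall into 15 genes of white adipocytes, 7 genes of brown and thermogenic adipocytes, and 13 genes of lipid synthesis. The abdominal aorta of the mouse is wrapped in perivascular adipose tissue. White adipocytes store triglyceride in a droplet coated with perilipins, release fatty acids from it through lipases, and secrete adiponectin and leptin. Brown adipocytes burn fatty acids for heat through uncoupling protein 1. Adipocytes also make fatty acids from glucose and assemble them into triglyceride, under the control of insulin and of factors such as ChREBP.

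The 12 aortas came from male mice in 4 groups of 3. Control mice (CCN2fl/fl) carried floxed Ccn2 alleles without Cre and received saline (CFS) or Ang II (CFA). CCN2SMC∆ mice carried the same floxed alleles with Myh11-Cre-ERT2, a tamoxifen-activated Cre driven by a smooth muscle promoter, and received saline (CSS) or Ang II (CSA). Both genotypes were given 5 doses of tamoxifen from 8 weeks of age and had a washout of 2 weeks before the pumps were placed, so the control mice lacked the Cre and not the drug. Ang II was infused at 500 ng/kg/min, and tissue was taken on day 7. The study compared the genotypes to learn what Ccn2 made by smooth muscle does in an aorta exposed to Ang II, and the same comparisons are made here for the adipose genes.

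Each library held 14558580 to 23107807 fragments, and the values are FPKM, fragments corrected for transcript length and sequencing depth. They compare levels between genes per unit of length. Ccn2, the targeted gene, was at 709.5, 1108 and 480.1 FPKM in the 3 CFS mice (numbers 68, 69 and 70, an order kept throughout), at 436, 639.9 and 586 in CSS (54, 55 and 56), at 1013, 1105 and 564 in CFA (71, 72 and 74) and at 255, 331 and 399 in CSA (01, 02 and 03). All CSA mice lay below all CFA mice, whereas the saline groups overlapped. CSA mouse 03 had the fewest fragments and stood apart from the rest of its group, at a root mean square log2 difference of 1.21 and 1.20 from the other 2 CSA mice, which lay 0.505 from each other. Skeletal muscle markers summed to 172 FPKM in CFS mouse 68 and to 280 FPKM in CSS mouse 55, against 3.54 to 6.11 FPKM elsewhere. Smooth muscle markers, 8 of 8 detected in every group, summed to 800 to 959 FPKM in CSA and to 5532 to 10305 FPKM in the other groups. Macrophage markers, 8 of 8 detected in every group and none at 0, summed to 1114 to 1507 FPKM in CSA and to 145 to 361 FPKM elsewhere, and neutrophil markers to 535 to 575 FPKM in CSA and to 7.99 to 33.1 FPKM elsewhere. Fibroblast markers, 8 of 8 detected in every group, summed to 6152 to 7274 FPKM in CSA and to 1917 to 4152 FPKM elsewhere. Endothelial markers, likewise 8 of 8, summed to 136 to 173 FPKM in CSA, to 102 FPKM in CFS mouse 69 and to 216 to 464 FPKM in the other mice. In RNA from whole tissue, fewer cells of a type and less RNA per cell cannot be told apart, and the part of these shifts in the results on the adipose genes was not tested.

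The promoters of 4 genes, chosen after their values were seen, are shown because they stand for the patterns described here. Adipoq encodes adiponectin and had overlapping groups, Lep and Fasn were lower in CSA, and Ucp1, the marker of brown fat, varied most within a group. Each run is the 250 bases before the transcription start in RefSeq on GRCm38.p6, read 5′ to 3′ on the strand of the gene. Capitals mark matches on either strand to CCAAT (the CCAAT box), TTGCNNAA (a C/EBP type motif), AGGTCA (the nuclear receptor motif), CACGTG (the E-box) or TATAAA (the TATA box).
Adipoq (chr16:23146286-23146535, plus strand): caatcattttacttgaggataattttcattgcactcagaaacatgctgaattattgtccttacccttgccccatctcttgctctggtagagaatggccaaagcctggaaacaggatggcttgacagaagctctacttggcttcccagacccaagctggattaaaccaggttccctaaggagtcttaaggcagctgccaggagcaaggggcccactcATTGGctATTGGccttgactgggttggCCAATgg
Lep (chr6:29059971-29060220, plus strand): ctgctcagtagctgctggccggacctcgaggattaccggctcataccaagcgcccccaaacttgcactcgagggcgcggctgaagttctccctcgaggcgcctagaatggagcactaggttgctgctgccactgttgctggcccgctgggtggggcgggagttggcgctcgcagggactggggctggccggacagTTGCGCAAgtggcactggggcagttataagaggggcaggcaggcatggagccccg
Fasn (chr11:120824548-120824797, minus strand): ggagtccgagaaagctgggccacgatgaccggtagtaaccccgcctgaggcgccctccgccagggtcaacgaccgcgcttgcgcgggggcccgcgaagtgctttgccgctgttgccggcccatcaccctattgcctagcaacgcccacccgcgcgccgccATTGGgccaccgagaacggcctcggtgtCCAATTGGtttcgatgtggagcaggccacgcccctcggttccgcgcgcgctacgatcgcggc
Ucp1 (chr8:83290098-83290347, plus strand): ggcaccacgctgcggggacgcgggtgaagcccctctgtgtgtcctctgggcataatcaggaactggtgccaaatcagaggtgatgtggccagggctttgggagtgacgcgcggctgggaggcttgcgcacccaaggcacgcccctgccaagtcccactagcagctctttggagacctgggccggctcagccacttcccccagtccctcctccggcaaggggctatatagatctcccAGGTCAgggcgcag
Of the 35 genes, 25 had a promoter in the RefSeq table. CCAAT stood in 9 of these 25 (36%), against 37.5% of the 27025 genes with a promoter there. TTGCNNAA stood in 5 (20%, against 10.8%), AGGTCA in 6 (24%, against 15.8%), CACGTG in 2 (8%, against 6.86%) and TATAAA in 3 (12%, against 14.3%). Pparg, which encodes the nuclear receptor that drives adipocyte differentiation, held 4 of the 5 motifs. AGGTCANAGGTCA, a tandem repeat of the nuclear receptor motif, stood in 0 of the 25 and in 0.0407% of all genes. A match describes letters in this window and says nothing about binding.

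Most of the 35 genes were lower in CSA than in CFA. A gene was called when limma gave a Benjamini-Hochberg adjusted p under 0.05 and a log2 fold change beyond 1.5 in size on the scale of log2(FPKM + 0.1). Of the 35 genes, 33 passed the filter of 1 FPKM in at least 3 libraries, and Elovl3 and Ppargc1a did not. Of the 33, 6 (Lep, Aqp7, Ucp1, Cidea, Plin5 and Mlxipl) were under 1 FPKM in every CSA mouse and so passed only through other groups, and the counts below are descriptions for that reason. Between CSA and CFA, 22 of the 35 were called lower, against 8.27% of the 14676 features tested, and 0 were called higher, against 8.95%. In all, 28 of the 35 had an unadjusted p under 0.05, none of them with a higher level in CSA, against 25.6% of features lower and 49% in either direction at that threshold. The median log2 fold change was -2.17 over the 33 tested genes and -0.04 over all features tested. By group, 8 of 15 white adipocyte genes, 4 of 7 brown and thermogenic genes and 10 of 13 lipid synthesis genes were called lower. Every CSA mouse lay below every CFA mouse for 27 of the 33 tested genes, against 25.1% of all features. Without CSA mouse 03, 19 genes were called lower, and without CFA mouse 74, 16 were.

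**Figure D1:**
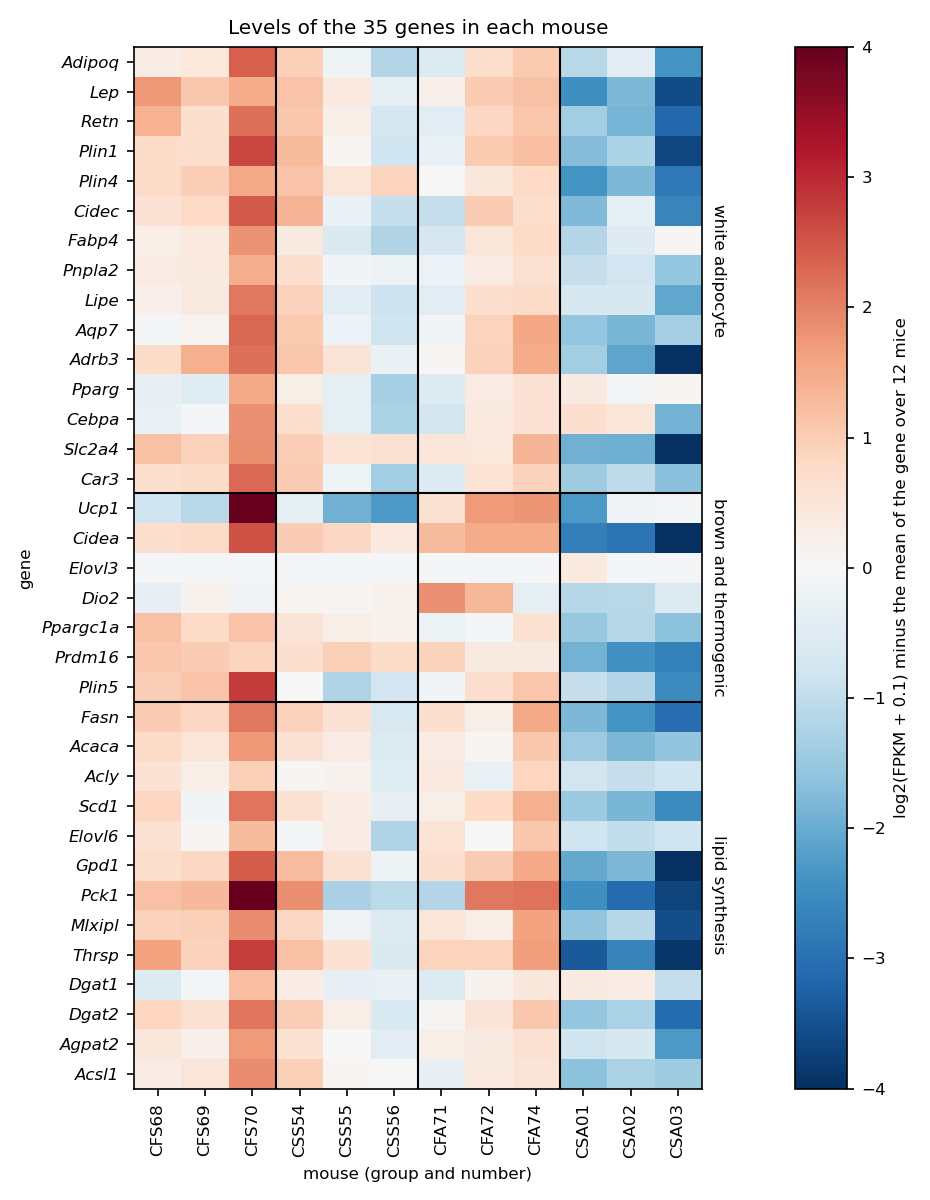
Level of each of the 35 genes (rows, by gene group) in each of the 12 mice (columns, by group), as log2(FPKM + 0.1) minus the gene's mean over all mice; colours end at 4 in either direction. The 3 CSA columns are blue for most genes, CFS mouse 70 is red for most, and genes such as Pparg, Cebpa and Dgat1 do not follow the pattern.

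Among the secreted products of white adipocytes, leptin and resistin transcripts fell and adiponectin did not pass the test. In FPKM, Adipoq measured 36.8, 40.4 and 159 in CFS, 58.3, 26.96 and 13.3 in CSS, 20.8, 49.03 and 63.2 in CFA and 14.1, 22.6 and 5.67 in CSA. The groups overlapped, since CSA mouse 02 lay above CFA mouse 71, and the difference was not called (log2 fold change -1.71 ± 0.73 SE, adjusted p = 0.0847). With array weights the Adipoq difference was -0.62 (adjusted p = 0.452). Lep (chr6:29060220-29073877) encodes leptin, the hormone that reports fat stores. The level of Lep was 3.84, 2.42 and 3.25 FPKM in CFS, 2.52, 1.45 and 0.822 in CSS, 1.27, 2.304 and 2.56 in CFA and 0.117, 0.239 and 0 in CSA. CSA mice held 8, 17 and 0 Lep fragments, where a count of 0 allows up to 3, and lay below all other mice (log2 fold change -3.41 ± 0.50 SE, adjusted p = 0.00028). With a pseudocount of 1 FPKM the Lep difference was -1.42, inside the fold limit (adjusted p = 0.000845). Retn encodes resistin. CFS mice had 35.2, 21.7 and 61.7 FPKM of Retn, CSS mice 28.3, 15.9 and 8.38, CFA mice 9.97, 23.96 and 28.9 and CSA mice 5.12, 3.61 and 1.45. All CSA mice lay below all other mice (log2 fold change -2.63 ± 0.60 SE, adjusted p = 0.00476).

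Transcripts of the perilipins, the coat proteins of the fat droplet, fell in CSA. Plin1 was at 23.7, 23.1 and 91.99 FPKM in CFS, 34.6, 15.1 and 8.096 in CSS, 11.9, 29.3 and 33.1 in CFA and 4.21, 5.86 and 1.05 in CSA. Plin1, whose product perilipin 1 is the gatekeeper of lipolysis on the droplet, was thus lower in CSA without overlap (log2 fold change -2.88 ± 0.76 SE, adjusted p = 0.011), and the difference was -1.68 with array weights (adjusted p = 0.0454). In FPKM, Plin4 measured 91.7, 109 and 156 in CFS, 121, 76.4 and 100.1 in CSS, 53.4, 74.6 and 95.01 in CFA and 10.4, 15.8 and 7.44 in CSA. Plin4 (chr17:56100591-56109803), which encodes another perilipin, was lower in each CSA mouse than in any other mouse (log2 fold change -2.75 ± 0.31 SE, adjusted p = 5.37e-05). Cidec, which fuses droplets into the large droplet of white fat, was at 14.4, 56.4 and 45.6 FPKM in CFA and at 8.12, 21.7 and 4.43 in CSA, with overlap and no call (log2 fold change -1.84 ± 0.78 SE, adjusted p = 0.0818), and the difference was -0.53 with array weights (adjusted p = 0.569). The call for Cidec appeared without CFA mouse 71 (adjusted p = 0.0413) or without CSA mouse 02 (adjusted p = 0.0356).

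Of the genes of lipolysis, the lipases Pnpla2 and Lipe were not called and the adrenergic receptor gene Adrb3 was. Pnpla2, which encodes adipose triglyceride lipase, was at 45.1, 66.9 and 80.4 FPKM in CFA and 27.7, 31.03 and 17.96 in CSA, without overlap but short of the fold limit (log2 fold change -1.32 ± 0.36 SE, adjusted p = 0.013), and it was called without CFA mouse 71 (-1.55, adjusted p = 0.0123). With array weights the difference was -0.84 for Pnpla2 (adjusted p = 0.0445) and -0.62 for Lipe (adjusted p = 0.369). Lipe, which encodes hormone-sensitive lipase, was at 7.79, 16.7 and 17.9 in CFA and 6.71, 6.75 and 2.43 in CSA, also without overlap and not called (log2 fold change -1.45 ± 0.62 SE, adjusted p = 0.0864), and 15.6% of its exon sequence overlaps a neighbouring gene. Adrb3 encodes the adrenergic receptor of adipocytes through which sympathetic nerves start lipolysis and heat production. The level of Adrb3 was 8.22, 13.1 and 22.6 FPKM in CFS, 10.7, 6.92 and 4.002 in CSS, 4.99, 9.31 and 13.7 in CFA and 1.81, 1.06 and 0.0966 in CSA. The CSA mice lay below all others, with 124, 76 and 5 fragments (log2 fold change -3.52 ± 0.75 SE, adjusted p = 0.00333), and the difference was -2.33 with array weights (adjusted p = 0.00236). An annotated neighbour overlaps 24.9% of the exon sequence of Adrb3, and fragments there could be assigned to either or to none.

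Among genes of uptake and transport, the glucose transporter gene Slc2a4 was called lower. Slc2a4 (chr11:69942539-69948188) encodes GLUT4, which brings glucose into adipocytes and muscle in response to insulin. CFS mice had 12.9, 10.9 and 20.8 FPKM of Slc2a4, CSS mice 11.4, 8.36 and 8.59, CFA mice 7.96, 7.64 and 14.5 and CSA mice 1.402, 1.38 and 0.15. No CSA mouse reached the lowest of the others (log2 fold change -3.56 ± 0.59 SE, adjusted p = 0.000677). Aqp7, the glycerol channel, was called lower. Aqp7 was at 2.296, 2.53 and 11.99 FPKM in CFS, 4.97, 1.98 and 1.32 in CSS, 2.19, 4.43 and 7.11 in CFA and 0.731, 0.583 and 0.877 in CSA. The CSA values were all under 1 FPKM (log2 fold change -2.36 ± 0.66 SE, adjusted p = 0.0145), and the call was lost without CFA mouse 74 (-1.97, adjusted p = 0.0628). Car3, an abundant carbonic anhydrase of adipocytes and muscle, was called by a narrow margin. In FPKM, Car3 measured 200.2, 208 and 604 in CFS, 251, 111 and 47.3 in CSS, 87.96, 182 and 236 in CFA and 46.4, 61.6 and 39.5 in CSA. CSA lay below CFA without overlap (log2 fold change -1.68 ± 0.61 SE, adjusted p = 0.0465), yet the call was lost in 12 of 21 alternatives, with an adjusted p up to 0.166. These 12 include leaving out any of the 3 CSA mice, CFA mouse 72 or 74, CFS mouse 68 or 69, or CSS mouse 55.

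The fatty acid carrier Fabp4 and the transcription factors of adipocytes did not pass the test. Fabp4 was at 40.4, 90.2 and 112 FPKM in CFA and 28.5, 45.03 and 66.2 in CSA (log2 fold change -0.75 ± 0.54 SE, adjusted p = 0.296; from -1.19 without CFA mouse 71 to -0.44 without CSA mouse 01), and its highest CSA value was in mouse 03, where Adipoq was lowest. The level of Pparg was 3.11, 2.79 and 11.6 FPKM in CFS, 4.67, 2.98 and 1.52 in CSS, 2.75, 4.95 and 5.94 in CFA and 5.15, 3.799 and 4.18 in CSA. The CSA values lay within the range of CFA (log2 fold change 0.00 ± 0.54 SE, adjusted p = 0.996). Cebpa, whose product acts with PPARγ, was at 14.99, 32.5 and 37.2 in CFA and 40.02, 35.1 and 6.66 in CSA (log2 fold change -0.31 ± 0.78 SE, adjusted p = 0.777), and its difference turned to 0.51 without CSA mouse 03. Fabp4, Pparg and Cebpa are also expressed by macrophages and other myeloid cells, whose markers rose in these same CSA mice, with 7 of 8 macrophage markers and 7 of 8 neutrophil markers called higher against CFA. Their part in the levels of these genes was not tested.

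**Figure D2:**
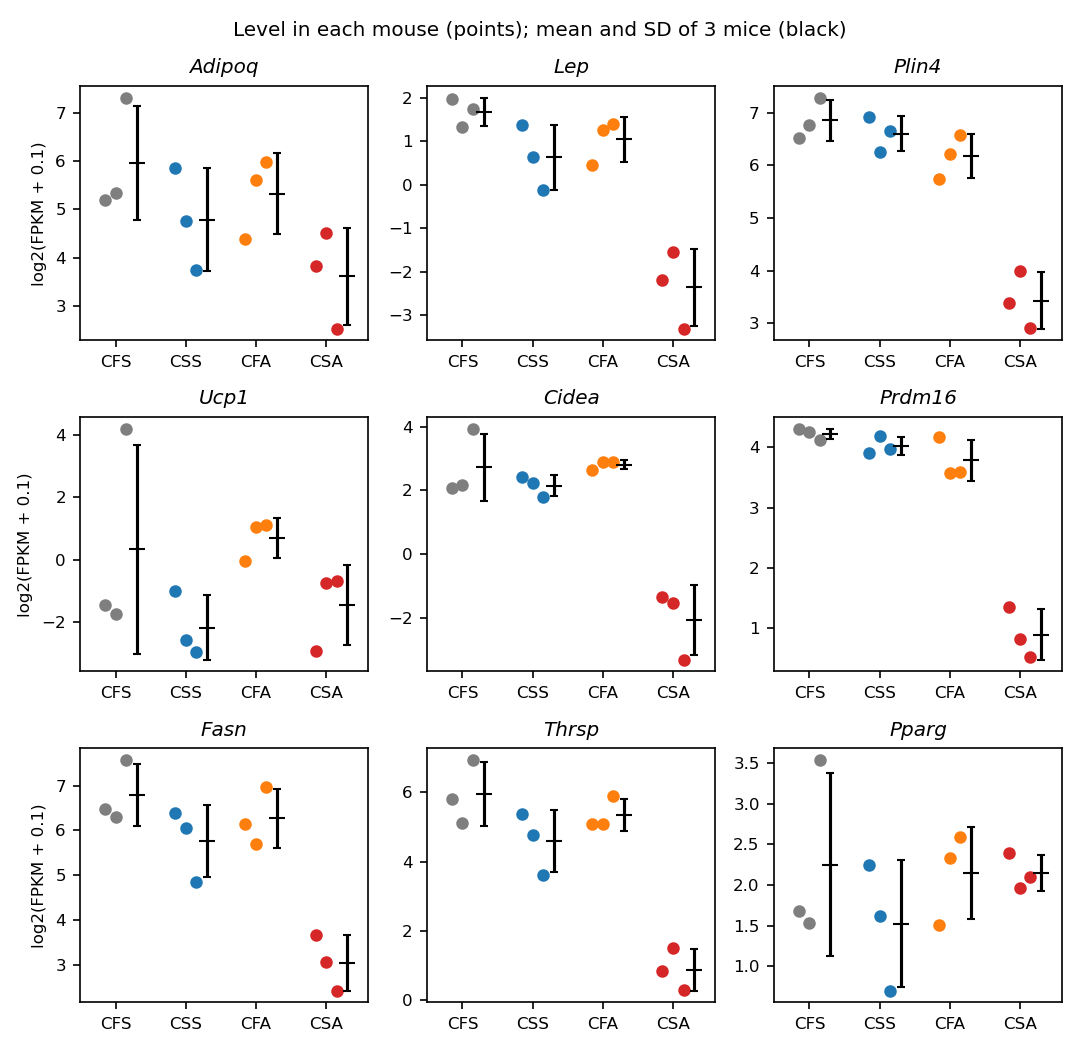
Level of 9 genes in each mouse as log2(FPKM + 0.1), with points for mice and the mean and SD of 3 mice in black. Lep, Plin4, Cidea, Prdm16, Fasn and Thrsp lie lower in all CSA mice than in any other mouse, Adipoq and Pparg overlap between groups, and Ucp1 is high in CFS mouse 70 alone.

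In the brown and thermogenic group, the brown fat regulator Prdm16 and the droplet protein Cidea were low in every CSA mouse, while Ucp1 was scarce in most aortas. Ucp1 encodes the uncoupling protein that defines brown and beige adipocytes. CFS mice had 0.265, 0.196 and 18.4 FPKM of Ucp1, CSS mice 0.395, 0.066 and 0.0281, CFA mice 0.87, 1.96 and 2.05 and CSA mice 0.0301, 0.49 and 0.518. CFS mouse 70 held 520 Ucp1 fragments, while the other 2 CFS mice held 8 and 6, and the 3 CSS mice 12, 2 and 1. The CFA mice lay above the CSA mice without overlap, but the difference was not called (log2 fold change -2.17 ± 1.37 SE, adjusted p = 0.233), and it was -0.95 with a pseudocount of 1 FPKM and -1.43 without CSA mouse 01. Ucp1, the defining marker of brown fat, was thus at 2.05 FPKM or less in 11 of the 12 libraries, and the name brown is used for these genes by their known roles. Elovl3, an elongase induced by cold in brown fat, had 1 fragment in CSA mouse 01 and 0 in the other 11 libraries, where a 0 allows up to 3.

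Prdm16 (chr4:154316125-154636873) encodes a factor that directs cells to a brown fate and is also made in the arterial wall. Prdm16 was at 19.6, 18.9 and 17.4 FPKM in CFS, 14.9, 18.1 and 15.7 in CSS, 17.9, 11.9 and 12.01 in CFA and 2.45, 1.66 and 1.34 in CSA. It had the smallest adjusted p of the 33 tested genes between CSA and CFA (log2 fold change -2.89 ± 0.22 SE, adjusted p = 3.63e-06). The 9 mice outside CSA lay between 11.9 and 19.6 FPKM. All 8 smooth muscle markers were also called lower in CSA, and their part in the level of Prdm16 was not tested. Cidea encodes a droplet protein of brown fat. In FPKM, Cidea measured 4.14, 4.36 and 15.2 in CFS, 5.27, 4.54 and 3.36 in CSS, 6.19, 7.29 and 7.25 in CFA and 0.296, 0.243 and 0 in CSA. CSA mice held 7, 6 and 0 fragments and lay below all others (log2 fold change -4.87 ± 0.56 SE, adjusted p = 5.62e-05). The size of the Cidea difference depended on the pseudocount and was -2.75 with 1 FPKM (adjusted p = 0.000106).

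Dio2, the deiodinase that makes active thyroid hormone inside brown adipocytes, was high in part of CFA. The level of Dio2 was 5.54, 7.54 and 6.24 FPKM in CFS, 7.44, 7.29 and 7.68 in CSS, 25.03, 17.3 and 5.297 in CFA and 3.05, 3.16 and 4.72 in CSA. CFA mice 71 and 72 were above all other mice, and CFA mouse 74 was below the saline groups. CSA lay below CFA (log2 fold change -1.86 ± 0.44 SE, adjusted p = 0.0062), and the fold limit was no longer passed without CFA mouse 71 (-1.40, adjusted p = 0.0235). CFS mice had 1.06, 1.204 and 4.001 FPKM of Plin5, CSS mice 0.49, 0.155 and 0.242, CFA mice 0.44, 0.835 and 1.15 and CSA mice 0.212, 0.158 and 0. Perilipin 5 ties droplets to mitochondria in tissues that oxidise fat, and it was called lower in CSA than in CFA (log2 fold change -2.10 ± 0.63 SE, adjusted p = 0.0207). That call was lost in 6 of 20 alternatives, including with a pseudocount of 1 FPKM (-0.67, adjusted p = 0.0982), with array weights (-1.34, inside the fold limit), in a fit of only CSA and CFA (adjusted p = 0.0686) or without CFA mouse 72 (adjusted p = 0.0526), CFA mouse 74 (0.0775) or CSA mouse 03 (0.0662). Ppargc1a was at 1.03, 0.746 and 1.003 FPKM in CFS, 0.62, 0.483 and 0.453 in CSS, 0.334, 0.372 and 0.658 in CFA and 0.0747, 0.129 and 0.0594 in CSA. Ppargc1a, the coactivator that drives mitochondrial growth, was not tested, and its CSA values lay under all others.

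Of the 13 lipid synthesis genes, 12 had an adjusted p under 0.05 with a lower level in CSA, against 21.2% of features, and 10 of them also passed the fold limit. Fasn (chr11:120805846-120824547) encodes fatty acid synthase. In FPKM, Fasn measured 89.5, 78.98 and 191 in CFS, 83.1, 66.4 and 28.98 in CSS, 70.3, 51.7 and 126 in CFA and 12.6, 8.29 and 5.28 in CSA. The highest CSA value was under the lowest of the other 9 mice (log2 fold change -3.22 ± 0.50 SE, adjusted p = 0.000404). Acaca encodes acetyl-CoA carboxylase, which supplies Fasn with malonyl-CoA. The level of Acaca was 11.8, 9.81 and 23.2 FPKM in CFS, 10.4, 8.81 and 4.702 in CSS, 8.71, 7.27 and 14.8 in CFA and 2.501, 1.94 and 2.27 in CSA. Again no CSA mouse reached another group (log2 fold change -2.09 ± 0.38 SE, adjusted p = 0.00116). Acly, which makes the acetyl-CoA for both, was at 50.7, 32.6 and 71.1 FPKM in CFA and 23.4, 20.1 and 22.4 in CSA, lower without overlap but inside the fold limit (log2 fold change -1.16 ± 0.28 SE, adjusted p = 0.00641).

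Thrsp (chr7:97412938-97417730) encodes Spot 14, a lipogenic protein that responds to thyroid hormone and carbohydrate. CFS mice had 56.1, 34.8 and 123 FPKM of Thrsp, CSS mice 41.5, 27.1 and 12.2, CFA mice 33.7, 33.7 and 58.8 and CSA mice 1.69, 2.76 and 1.13. Thrsp was lower in every CSA mouse than in any other mouse (log2 fold change -4.46 ± 0.53 SE, adjusted p = 7.15e-05). Mlxipl encodes ChREBP, the glucose-sensing factor that controls lipogenic genes. Mlxipl was at 4.22, 4.305 and 8.44 FPKM in CFS, 3.94, 1.98 and 1.47 in CSS, 3.07, 2.65 and 6.86 in CFA and 0.658, 0.936 and 0.0943 in CSA. It was lower in CSA without overlap (log2 fold change -2.88 ± 0.62 SE, adjusted p = 0.00347), by a log2 fold change of -1.68 with a pseudocount of 1 FPKM (adjusted p = 0.0035).

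Desaturation and elongation of the new fatty acids are carried out by Scd1 and Elovl6. In FPKM, Scd1 measured 251, 128 and 609 in CFS, 209, 168 and 109 in CSS, 164, 240.1 and 370.5 in CFA and 49.02, 38.9 and 23.4 in CSA. Scd1 remained the most abundant of the 13 synthesis genes in each CSA mouse by FPKM even though it was called lower (log2 fold change -2.78 ± 0.53 SE, adjusted p = 0.00151). Elovl6 was at 5.15, 3.502 and 7.58 FPKM in CFA and 1.97, 1.74 and 1.97 in CSA, without overlap and short of the fold limit (log2 fold change -1.40 ± 0.42 SE, adjusted p = 0.02), and it was called without CFA mouse 72 (-1.68, adjusted p = 0.0151).

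The genes of glycerol backbone supply fell with wide spread. Gpd1 makes glycerol 3-phosphate from a glycolytic intermediate, and Pck1 acts at an earlier step of the route that starts from pyruvate. The level of Gpd1 was 18.1, 19.8 and 58.7 FPKM in CFS, 25.9, 16.8 and 9.58 in CSS, 17.7, 22.4 and 31.9 in CFA and 2.61, 3.12 and 0.242 in CSA. CSA mouse 03, with 11 fragments, was far below the other 2 CSA mice, and all 3 were below every other mouse (log2 fold change -4.02 ± 0.78 SE, adjusted p = 0.00178). A neighbour overlaps 13% of the exon sequence of Gpd1. CFS mice had 24.5, 26.9 and 202 FPKM of Pck1, CSS mice 39.9, 4.33 and 5.12, CFA mice 4.75, 46.9 and 49.7 and CSA mice 1.896, 1.196 and 0.742. Pck1 differed between mice of the same group by 8.19-fold in CFS, 9.03-fold in CSS and 10.3-fold in CFA after the addition of 0.1 FPKM. CSA lay below CFA (log2 fold change -4.12 ± 1.12 SE, adjusted p = 0.0131), a call lost without CFA mouse 72 (-3.58, adjusted p = 0.0501) or mouse 74 (-3.54, adjusted p = 0.056), or with array weights (-2.83, adjusted p = 0.0515).

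Triglyceride assembly was divided. Dgat2 was at 27.2, 23.1 and 67.3 FPKM in CFS, 30.04, 18.1 and 9.96 in CSS, 15.7, 21.6 and 32.2 in CFA and 5.06, 6.22 and 1.71 in CSA. Dgat2, the acyltransferase that takes up newly made fatty acids, was lower in CSA (log2 fold change -2.52 ± 0.57 SE, adjusted p = 0.00446). Dgat1, the other enzyme of this step, was at 6.77, 10.9 and 13.7 FPKM in CFA and 12.9, 12.4 and 5.08 in CSA and did not pass the test (log2 fold change -0.10 ± 0.48 SE, adjusted p = 0.884). The difference between Dgat1 and Dgat2 was not tested. In FPKM, Agpat2 measured 25.5, 21.2 and 60.3 in CFS, 28.1, 18.1 and 13.7 in CSS, 21.6, 23.6 and 27.9 in CFA and 10.6, 11.9 and 3.71 in CSA. Agpat2, which makes phosphatidic acid, was called lower (log2 fold change -1.63 ± 0.48 SE, adjusted p = 0.0187), and the call was lost without CFA mouse 74 (adjusted p = 0.0617) or CSA mouse 03 (adjusted p = 0.0528), and with array weights (-1.03). The level of Acsl1 was 18.3, 21.1 and 56.3 FPKM in CFS, 28.99, 15.7 and 15.2 in CSS, 11.98, 19.8 and 21.3 in CFA and 4.73, 6.23 and 5.58 in CSA. Acsl1, which activates fatty acids, was called lower (log2 fold change -1.63 ± 0.41 SE, adjusted p = 0.00835) and fell inside the fold limit without CFA mouse 74 (-1.48), with a pseudocount of 1 FPKM (-1.49) and with array weights (-1.33). A neighbour overlaps 9.9% of the exon sequence of Acsl1.

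The effect of Ang II in CCN2SMC∆ mice was read between CSA and CSS, which shares the CSA libraries with the comparison above. Here 16 of the 35 genes were called lower, against 9.36% of features tested, and 0 were called higher, against 10.9%. They were 6 white adipocyte genes, 2 brown and thermogenic genes and 8 synthesis genes. In all, 22 had an unadjusted p under 0.05, none of them with a higher level in CSA, against 27.5% of features lower and 52.9% in either direction. The median log2 fold change was -1.72 over the 33 tested genes and -0.06 over all features. Every CSA mouse lay below every CSS mouse for 22 of the 33, against 29.1% of features. Cidea was lower (log2 fold change -4.21 ± 0.56 SE, adjusted p = 0.000116), as were Thrsp (log2 fold change -3.70 ± 0.53 SE, adjusted p = 0.000199) and Prdm16 (log2 fold change -3.13 ± 0.22 SE, adjusted p = 1.48e-06). The 6 white adipocyte genes were Lep, Retn, Plin1, Plin4, Adrb3 and Slc2a4, at log2 fold changes of -2.34 (Retn) to -3.52 (Slc2a4). Adipoq was not called (log2 fold change -1.17 ± 0.73 SE, adjusted p = 0.215), nor was Ucp1, which was scarce in both groups (log2 fold change 0.72 ± 1.37 SE, adjusted p = 0.692). Over the alternatives these estimates ran from -1.69 to -0.49 for Adipoq and from 0.2 to 1.46 for Ucp1. Without CSS mouse 54, 12 genes were called, among them 5 of the synthesis genes, and Plin1 (-1.85, adjusted p = 0.0969), Acaca (-1.49, 0.017), Mlxipl (-1.76, 0.0651) and Acsl1 (-1.48, 0.0211) were not. Without CSA mouse 03, 14 genes were called, and Plin1 (-1.69, adjusted p = 0.0837) and Mlxipl (-1.41, 0.0376) were not. Calls were also gained, with 18 genes called without CFS mouse 70, CSS mouse 56 or CSA mouse 02. Pck1 was called in 4 alternatives, Agpat2 in 4, Aqp7 in 3, and Cidec, Car3 and Pnpla2 in 1 each. Plin1 was not called without CSS mouse 55 (-2.45, adjusted p = 0.0526). With a pseudocount of 1 FPKM, Lep (-1.17), Acaca (-1.42) and Mlxipl (-1.12) fell inside the fold limit, as did Mlxipl with array weights (-1.35), and Mlxipl was not called in a fit of only CSA and CSS (adjusted p = 0.0529).

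**Figure D3:**
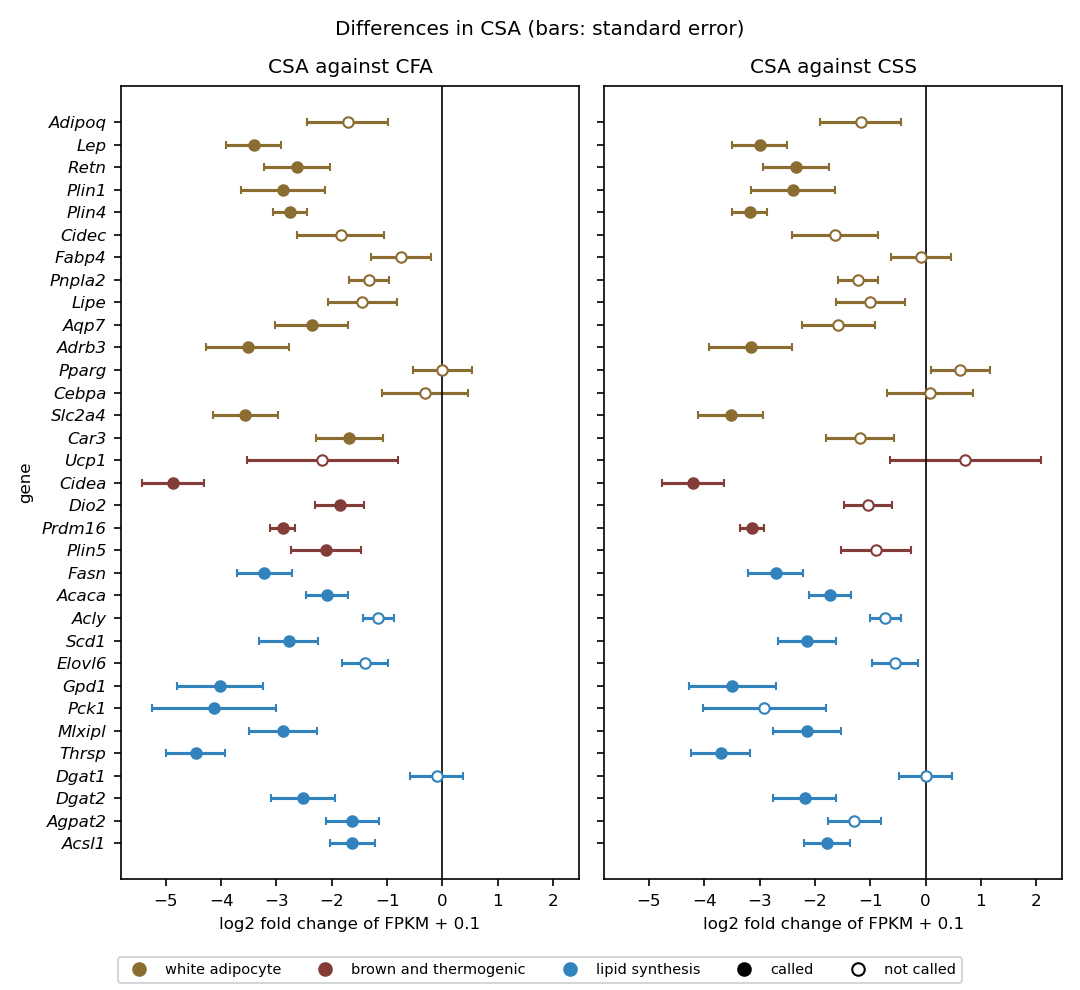
Log2 fold change on the scale of FPKM + 0.1 with its standard error for the 33 tested genes, CSA against CFA on the left and CSA against CSS on the right; filled points were called. Most points lie left of 0 in both panels, and the CSA libraries are the same in both.

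Ang II in control mice and the genotype under saline gave no call. Between CFA and CFS, 0 of the 35 genes were called by limma, against 0.0273% of features, and 1 had an unadjusted p under 0.05, against 9.42% of features. The median log2 fold change of the 33 tested genes was -0.52, and 30 of the 33 estimates were below 0, against 50.2% of features. Without CFS mouse 70 the median was -0.12, and 20 of 32 were below 0, while it was -0.27 without CFA mouse 71 and -0.84 without CFA mouse 74. Single mice also moved the estimates of single genes. Leaving out CFS mouse 70 gave 0.06 for Adipoq, -0.05 for Plin1, -0.13 for Fasn and 0.54 for Pparg. Leaving out CFA mouse 71 gave -0.15 for Adipoq, -0.35 for Lep and -0.25 for Plin1. Leaving out CFA mouse 72 gave -0.23 for Fasn. Estimates also moved away from 0, down to -1.03 for Adipoq, -0.99 for Lep, -1.12 for Plin1 and -0.87 for Fasn over all alternatives. With all mice, Adipoq differed by -0.62 ± 0.73 SE, Lep by -0.64 ± 0.50 SE, Plin1 by -0.71 ± 0.76 SE, Fasn by -0.52 ± 0.50 SE, Ucp1 by 0.37 ± 1.37 SE and Pparg by -0.11 ± 0.54 SE on the log2 scale, each with overlapping groups. Without CFA mouse 74, Dio2 was called higher in CFA (1.69, adjusted p = 0.00965). Between CSS and CFS, 0 of the 35 were called, against 0.0136% of features, and 7 had an unadjusted p under 0.05, against 6.3% of features. The median was -0.94, and 32 of 33 estimates were below 0, against 47.3% of features. Without CFS mouse 70 the median was -0.49, with 29 of 32 below 0, and Adipoq differed by -0.48, Plin1 by -0.53, Fasn by -0.63 and Pparg by -0.08. Without CSS mouse 56 the median was -0.55, and Adipoq differed by -0.64, Lep by -0.68, Plin1 by -0.69, Fasn by -0.57 and Pparg by -0.32. With a pseudocount of 1 FPKM, Ucp1 differed by -1.42. With all mice, Adipoq differed by -1.16 ± 0.73 SE, Lep by -1.05 ± 0.50 SE, Plin1 by -1.18 ± 0.76 SE, Fasn by -1.03 ± 0.50 SE, Ucp1 by -2.52 ± 1.37 SE and Pparg by -0.73 ± 0.54 SE, with overlap in each. Of the 33 genes, 3 (Plin5, Acly and Mlxipl) lay lower in every CSS mouse than in every CFS mouse, against 9.31% of features, a share near the background, and Plin5 had an adjusted p of 0.422. With 3 mice a group and such spread, a missing call does not show that these groups were alike.

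The genotype difference under Ang II was then compared with that under saline by an interaction term. For 8 of the 35 genes the genotype effect was lower under Ang II beyond both thresholds, against 7.31% of features, and for 0 it was higher, against 7.89%. In all, 12 of the 33 tested had an unadjusted p under 0.05, none of them with a term above 0. The share of features at that threshold was 37.7%, counted in either direction. At an adjusted p under 0.05 without a fold limit, 8 genes lay below 0 and 0 above. Of the 14676 features, 2004 lay below and 1873 above at that limit. The 8 genes were Prdm16 (-2.68 ± 0.31 SE, adjusted p = 0.000177), Plin4 (-2.5 ± 0.44 SE, adjusted p = 0.00209), Cidea (-4.29 ± 0.79 SE, adjusted p = 0.00264), Thrsp (-3.09 ± 0.75 SE, adjusted p = 0.0116), Slc2a4 (-2.95 ± 0.84 SE, adjusted p = 0.024), Lep (-2.35 ± 0.70 SE, adjusted p = 0.0299), Dio2 (-2.08 ± 0.63 SE, adjusted p = 0.0307) and Fasn (-2.19 ± 0.70 SE, adjusted p = 0.0404). With a pseudocount of 1 FPKM the term was -2.23 for Cidea, -1.94 for Slc2a4 and -0.70 for Lep, where the last was no longer called. Gpd1 had wide spread and was not called (-3.25 ± 1.10 SE, adjusted p = 0.0509). For Adipoq the term was -0.55 ± 1.03 SE and for Ucp1 0.36 ± 1.93 SE, both with wide errors. The Adipoq term also depended on CFS mouse 70. Without that mouse the Adipoq difference under saline was -0.48, against -1.16 with all mice, while under Ang II it stayed at -1.71. The count of 8 fell to 5 without CFS mouse 68, CFS mouse 69, CSS mouse 55 or CFA mouse 74, and to 4 without CSS mouse 54.

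**Figure D4:**
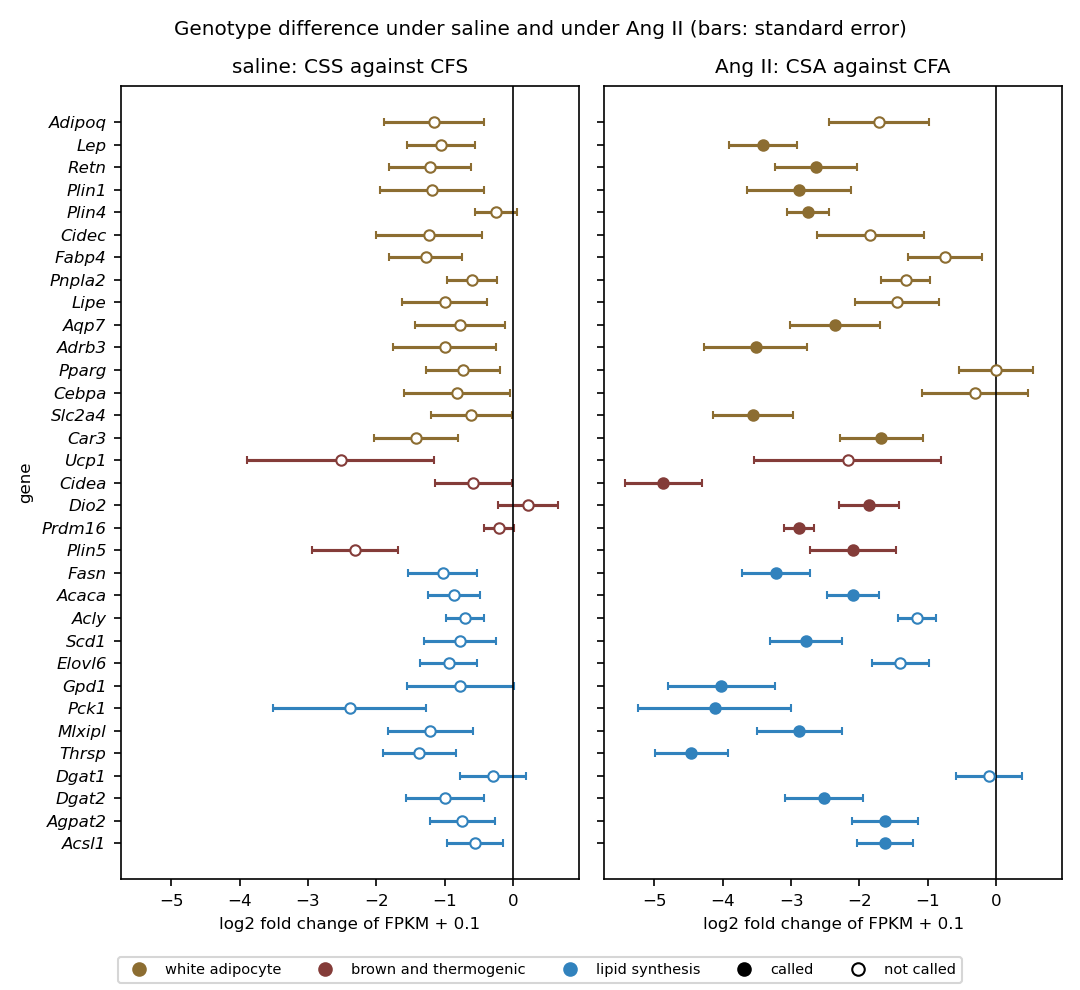
Genotype difference in log2(FPKM + 0.1) with its standard error for the 33 tested genes, under saline (CSS against CFS, left) and under Ang II (CSA against CFA, right); filled points were called. No point is filled under saline, and 22 are filled under Ang II.

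The adipose genes varied widely between mice of the same group. The ratio of the highest to the lowest of 3 mice, after the addition of 0.1 FPKM, had a median over the 33 tested genes of 3.02 in CFS, 2.84 in CSS, 2.21 in CFA and 2.51 in CSA. Over all features tested, the medians were 1.27, 1.22, 1.31 and 1.63. A ratio of at least 2 was found in 26 of 33 genes in CFS, against 14% of features, and in 23 of 33 in each of CSS (9.52%), CFA (16.3%) and CSA (30.8%). The same mouse was highest for most genes of a group, with CFS mouse 70 highest for 30 of 33, CSS mouse 54 for 29 and CFA mouse 74 for 29, against 31.4%, 36.3% and 34.3% of all features. In CSA the highest mouse was 01 for 14 genes, 02 for 14 and 03 for 5, against 30.5%, 25.7% and 43.8% of features, and mouse 03 was lowest for 24 of the 33. The summed level of the 15 white adipocyte genes ran from 158 to 256 FPKM in CSA, from 299 to 826 in CSS, from 326 to 792 in CFA and from 636 to 1798 in CFS. Kidney and liver markers, 2 of 8 at 0 in every mouse, were summed too. Within the groups their sum was highest in CFS mouse 70 (161 FPKM), CSS mouse 54 (84.7) and CFA mouse 74 (85.4). In these mice most of it was Cyp2e1 (142.8, 80.74 and 50.63 FPKM), and Alb was at 16.61, 3.355 and 31.2 FPKM. Within each group, Cyp2e1 and Adipoq were highest in the same mouse. The kidney genes Slc34a1, Lrp2, Umod and Kap were at 0.0339 FPKM or less in every mouse. In CSA the sum was 12.3 to 24.5 FPKM, a range that also held CSS mouse 56 (19.3) and CFA mouse 71 (14.3). The part of this variation in the adipose genes was not tested. The labels do not give the amount of perivascular fat left on each aorta.

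Since Adipoq varied with the other adipose genes across mice, each gene was also expressed as a ratio to Adipoq in the same mouse. This measure was chosen after the values were seen, with the smaller change of Adipoq known, and is a description without a test. The ratio was lower in every CSA mouse than in every CFA mouse for 15 of 32 genes, against 1.95% of features. They were 6 white adipocyte genes, 2 brown and thermogenic genes and 7 synthesis genes. Mean Adipoq itself was 44.3 FPKM in CFA and 14.1 FPKM in CSA, so the ratio of an unchanged gene tends to rise in CSA. The share of 1.95%, and that of 41.4% given below, are shifted by this and are not a neutral background. Plin1 stood at 0.572, 0.597 and 0.524 per unit of Adipoq in CFA and at 0.298, 0.259 and 0.186 in CSA, while the 9 mice outside CSA ranged from 0.524 to 0.644. Thrsp stood at 1.62, 0.688 and 0.931 in CFA and 0.119, 0.122 and 0.2 in CSA, and Lep at 0.0611, 0.047 and 0.0405 in CFA and 0.00832, 0.0106 and 0 in CSA. Lipe did not separate, at 0.374, 0.34 and 0.284 in CFA and 0.475, 0.299 and 0.428 in CSA. For 4 of the 32 genes (Fabp4, Pparg, Cebpa and Dgat1) the ratio was higher in every CSA mouse than in every CFA mouse, against 41.4% of features. Cebpa stood higher per Adipoq in CSA, at 2.83, 1.55 and 1.17 against 0.719, 0.663 and 0.589 in CFA, as was Dgat1, at 0.915, 0.548 and 0.896 against 0.325, 0.223 and 0.216. Pparg stood at 0.365, 0.168 and 0.737 in CSA and 0.132, 0.101 and 0.0941 in CFA, and Fabp4 at 2.02, 1.99 and 11.7 in CSA and 1.94, 1.84 and 1.77 in CFA, where its CSA values in mice 01 and 02 lay close to those of CFA. The ratio for Prdm16 overlapped between the groups, at 0.857, 0.242 and 0.19 in CFA and 0.174, 0.0734 and 0.236 in CSA.

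**Figure D5:**
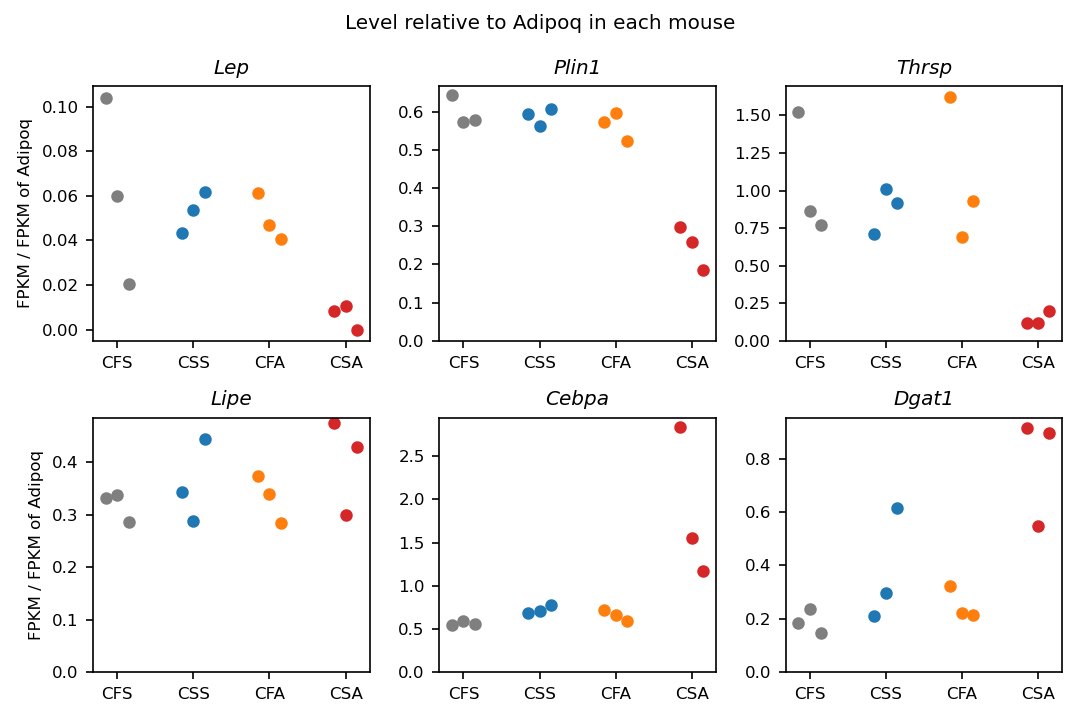
FPKM of 6 genes divided by that of Adipoq in the same mouse, by group, with 1 point for each mouse. Lep, Plin1 and Thrsp lie lower in all CSA mice than in any other mouse, Lipe overlaps, and Cebpa lies higher in all CSA mice than in any other mouse, as does Dgat1 than in any CFA or CFS mouse.

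Further genes of the same pathways were read between CSA and CFA from lists that hold none of the 35. Of 37 other adipocyte genes, 34 were tested, 13 were called lower, against 8.27% of features, and 1 higher, against 8.95%, with a median log2 fold change of -1.24. Those with the greatest size of change were Ces1d, a lipase of adipocytes (-4.98 ± 0.95 SE), Pnpla3, a lipogenic relative of Pnpla2 (-4.29 ± 1.05), and Rbp4, the retinol carrier (-3.66 ± 0.27, adjusted p = 3.66e-06). Rbp4 was at 169.9, 126 and 163 FPKM in CFA and at 10.2, 20.4 and 8.15 FPKM in CSA, and it was even across the 9 mice outside CSA, from 113 to 169.9 FPKM. Of 30 other thermogenic genes, 21 were tested, 5 were called lower and 1 higher against the same shares, with a median of -0.70. Cox8b and Cox7a1, subunits of cytochrome oxidase found in brown fat and muscle, fell (-4.64 ± 0.81, adjusted p = 0.000937, and -2.84 ± 0.80, adjusted p = 0.0152). Gatm, which makes the precursor of creatine, rose from 1.91, 3.80 and 2.09 FPKM in CFA to 21.7, 21.1 and 36.4 FPKM in CSA (3.31 ± 0.38, adjusted p = 5.9e-05). Of 26 other lipid synthesis genes, 25 were tested, 6 were called lower and 0 higher, again against 8.27% and 8.95% of features, with a median of -0.75. They were led by Pcx, pyruvate carboxylase (-2.51 ± 0.60), Me1, malic enzyme (-2.24 ± 0.28), and Acacb, the mitochondrial acetyl-CoA carboxylase (-2.09 ± 0.34).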

How the data were processed

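RNA was measured in the abdominal aortas of 12 mice, 4 groups of 3, grouped by the sample labels, with 0 columns left unused. FPKM were deposited by the authors as 1 table, without pooling of mice. The submitters' processing notes name HISAT2 2.0.5, StringTie 1.3.3b, featureCounts 1.5.0-p3 and mm10, and the methods name DEG-Seq for the study's own test. Whether counting used strand is not given in the sources used here.

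Gene positions and exon lengths came from GENCODE M21 on GRCm38. FPKM times length gave whole fragments (within 0.05) for 98.0% to 98.5% of values under 100 fragments, and their sum was taken as depth. The step of 1 fragment was sought among 10 divisors of the commonest value, a search added when a library failed without it. A 0 allows up to 3 fragments, for counting error only.

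The main test was limma 3.58.1 under R 4.3.3, run on log2(FPKM + 0.1) of the 12 libraries with the 4 groups as coefficients, eBayes set to trend and robust, and Benjamini-Hochberg adjustment over the 14676 features with at least 1 FPKM in at least 3 libraries. A call needed an adjusted p under 0.05 and a log2 fold change over 1.5 in size. The test was also run on simulated data, and no outcome of that run is given here. Tables were made with pandas 2.3.3 and numpy 2.4.6 under Python 3.11.15, and plots with matplotlib 3.10.9. Alternatives were a pseudocount of 1, no filter, a mean of at least 5 FPKM, scaling to equal sums (TPM), median-of-ratios scaling, eBayes without trend and robust settings, array weights, no fold limit, a fit of only the groups compared, and leaving out each mouse.

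The 35 genes, the further lists and the tests were chosen with earlier results of these data known. Values in every mouse are given for genes called between CSA and CFA and for Adipoq, Lep, Plin1, Ucp1, Fasn, Pparg and Ppargc1a, and values in CFA and CSA for most of the others. The 3 genes with the greatest change of each further list are named. Of the 37 further adipocyte genes, Itgb1bp3 matched no symbol. The labels do not say whether mice of a group shared a litter or day.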

Additional observations from a re-analysis of the deposited data

Results flagged for a closer look

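For 8 genes the genotype difference under Ang II differed from that under saline by the interaction term of limma, against 7.31% of all features below 0 and 7.89% above. At an unadjusted p under 0.05, 12 of the 33 tested genes passed, all of them below 0. Of all features 37.7% passed, counted in either direction. On the log2 scale the genotype effect under Ang II minus that under saline was -2.35 for Lep, -2.50 for Plin4, -2.95 for Slc2a4, -4.29 for Cidea, -2.08 for Dio2, -2.68 for Prdm16, -2.19 for Fasn and -3.09 for Thrsp. Plin4, Cidea, Prdm16 and Thrsp kept this call in every alternative run. The call was lost for Fasn in 10 of 20 alternatives, for Dio2 in 10 of 20, for Lep in 9 of 19 and for Slc2a4 in 4 of 20.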

How the results depend on the processing

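No paired analysis was possible because the groups share no mouse numbers in the labels. Leaving out each mouse in turn gave 16 to 23 called genes between CSA and CFA, 12 to 18 between CSA and CSS, 0 to 1 between CFA and CFS, 0 to 0 between CSS and CFS, and 4 to 11 for the interaction term. Without a filter on low values the interaction term called 5 genes, where more features were tested. Other settings kept these counts within 1.5 times. Within the gene groups, a mean of at least 5 FPKM left 2 brown and thermogenic genes called between CSA and CFA and 1 between CSA and CSS, where fewer genes were tested. Scaling to equal sums or by median-of-ratios moved the median of all features by less than 0.1 on the log2 scale. Sign changed for genes that were not called. Between CSA and CFA, Pparg was -0.01 with a pseudocount of 1 and -0.31 to 0.23 when mice were left out, Cebpa was 0.83 with array weights and -0.77 to 0.51, and Dgat1 was 0.57 with array weights and -0.38 to 0.33. Between CSA and CSS, leaving out mice gave -0.44 to 0.34 for Fabp4, -0.39 to 0.91 for Cebpa and -0.23 to 0.44 for Dgat1. Between CFA and CFS, Ucp1 was -0.27 with a pseudocount of 1 and -0.68 to 0.74 when mice were left out, Adipoq -1.0 to 0.06 and Pparg -0.47 to 0.54. The cause was not tested.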
